A study of Mus musculus with 30 samples.

Results

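Pou3f3, Foxc1, Skor1 and Lbx1 are 4 developmental genes whose neighbourhoods carried some of the strongest Elongin B (EloB) ChIP-seq peaks in mouse embryonic stem cells. Each was described through 1 mm9 window: chr1:42740000-42770000 for Pou3f3, chr13:31885000-31915000 for Foxc1, chr9:62975000-63010000 for Skor1 and chr19:45295000-45325000 for Lbx1. The windows were selected on the EloB peaks of these same data and on their absence upon EPOP knock-down, so EloB values at these genes are given as a description without a test. The 4 windows overlapped 249 of the 240359 peaks in 20 peak lists, and 9 of the 930 EloB regions found in both control lists. The names come with the windows. No gene annotation of the build used by the files was at hand, so the position of a peak within exons, introns or untranslated regions was not determined.

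The cells were E14Tg2A, a male mouse embryonic stem cell line grown without feeders in serum and LIF. Chromatin immunoprecipitation (ChIP) targeted EPOP (C17orf96), EloB, Suz12, Jarid2 and the histone marks H3K27me3 and H3K4me3. Control cells were compared with stable lines that expressed a lentiviral short hairpin RNA against EPOP, or with cells transfected with small interfering RNA against EloB. EPOP and EloB each had 2 control lists and 2 lists upon EPOP knock-down. Suz12 and H3K4me3 each had 2 control lists, with 1 list for each of the knock-downs, and Jarid2 and H3K27me3 had 1 control list and 1 list upon EPOP knock-down. Per the file headers, control replicate 1 of Suz12 and control replicate 2 of H3K4me3 received control small interfering RNA, while the other control list of each received a control hairpin. For EloB, proteins were crosslinked to each other before the usual formaldehyde step. Replicates 1 and 2 used different EloB antibodies, and different lots of a home-made EPOP antibody. Nothing in the labels tells whether replicates come from different cultures, and their spread may be technical only.

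One label conflict touches the EPOP values. The library titled as replicate 1 of EPOP upon EPOP knock-down is described elsewhere in its label as an IgG ChIP, and the sample titled IgG is described as an EPOP ChIP. The antibody named for that library and the header of its file both give EPOP. EPOP results are therefore given with and without that list.

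Polycomb repressive complex 2 (PRC2) trimethylates histone H3 at lysine 27 and keeps developmental regulators silent in embryonic stem cells. Suz12 is a core subunit of PRC2, Jarid2 is an accessory subunit, and EPOP is a protein that binds PRC2 and also contacts Elongin B and C. Elongin B is a ubiquitin-like subunit shared by the elongin transcription elongation factor and by several ubiquitin ligases. Promoters that carry both H3K27me3 and H3K4me3, a mark of promoters, are called bivalent, and many belong to developmental transcription factors. Pou3f3 encodes a POU-domain transcription factor of the nervous system and kidney. Foxc1 encodes a forkhead transcription factor of mesenchyme, the eye and the skull. Lbx1 encodes a homeodomain factor of dorsal spinal cord interneurons and migrating muscle precursors, and Skor1 encodes a corepressor that works with Lbx1 in the dorsal spinal cord.

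RefSeq promoters of 3 of the 4 genes could be read, and they are shown because CpG-rich promoters are the usual substrate of PRC2 in embryonic stem cells. The 250 bases upstream of the annotated start are given 5′ to 3′ on the strand of the gene, with each CG dinucleotide in capitals. They come from RefSeq on GRCm38.p6, another build than the mm9 of the peaks, at chr1:42695518-42695767 (plus strand) for Pou3f3, chr13:31806396-31806645 (plus strand) for Foxc1 and chr9:63148962-63149211 (minus strand) for the first of 3 Skor1 entries. Whether a peak covers them was not determined.
Pou3f3: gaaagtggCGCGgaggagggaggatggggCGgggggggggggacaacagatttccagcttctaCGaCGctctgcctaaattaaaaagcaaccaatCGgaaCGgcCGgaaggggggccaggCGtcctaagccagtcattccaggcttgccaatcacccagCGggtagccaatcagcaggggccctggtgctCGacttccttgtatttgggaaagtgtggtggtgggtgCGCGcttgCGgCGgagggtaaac
Foxc1: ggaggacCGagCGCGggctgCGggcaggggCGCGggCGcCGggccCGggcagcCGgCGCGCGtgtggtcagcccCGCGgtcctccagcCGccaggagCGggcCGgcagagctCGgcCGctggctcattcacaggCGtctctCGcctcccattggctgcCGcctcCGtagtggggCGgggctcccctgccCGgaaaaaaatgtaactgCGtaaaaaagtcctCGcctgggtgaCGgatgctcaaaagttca
Skor1: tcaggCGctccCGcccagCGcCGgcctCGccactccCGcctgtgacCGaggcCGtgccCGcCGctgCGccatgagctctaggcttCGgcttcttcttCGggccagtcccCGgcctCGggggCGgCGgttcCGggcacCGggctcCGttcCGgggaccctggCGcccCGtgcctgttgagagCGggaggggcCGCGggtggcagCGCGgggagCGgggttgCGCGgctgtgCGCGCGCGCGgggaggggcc

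These promoters held 15 CG dinucleotides at Pou3f3, 29 at Foxc1 and 36 at Skor1, against a median of 6 over 32851 mouse promoters of the same length. The other two Skor1 entries held 14 and 12. The observed-to-expected CpG ratio was 0.688, 0.928 and 0.931 in the same order, against a median of 0.373. The GC content was 60.8%, 70.8% and 78.8%, against a median of 52.4%. The other Skor1 entries had lower values, with ratios of 0.585 and 0.488 and GC contents of 64.8% and 65.6%. The motif counts are those of the printed sequences, and the other Skor1 entries held no GCGCGC. On both strands, CCAAT was present 3 times at Pou3f3, once at Foxc1 and not in the window at Skor1, and 33.8% of all promoters held it. GGGCGG was found once at Pou3f3, once at Foxc1 and 2 times at Skor1 (32.7% of all promoters), and GCGCGC, which reads the same on both strands, once, once and 3 times, overlapping matches included (11% of all promoters). None of the 3 windows contained TATAAA, which 12.4% of promoters contained. On GRCm38.p6 the protein-coding genes on either side were Tmem182 and Mrps9 for Pou3f3, Foxf2 and Gmds for Foxc1, Pias1 and Map2k5 for Skor1, and Tlx1 and Btrc for Lbx1.

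The lists carry no read depth, and the comparisons concern the presence, rank and width of called peaks. The deposited score of a peak was at least 50 in every list and reached 3233, and many strong peaks shared the value 3100, so scores were read as ranks within a list. The EloB lists held 1296 and 1542 peaks in control cells and 164 and 127 upon EPOP knock-down. For EPOP the numbers were 11072 and 6547 in control cells and 108 and 818 upon EPOP knock-down. The other lists held between 2641 (Jarid2, control) and 47296 peaks (H3K4me3 upon EloB knock-down).

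**Figure D1:**
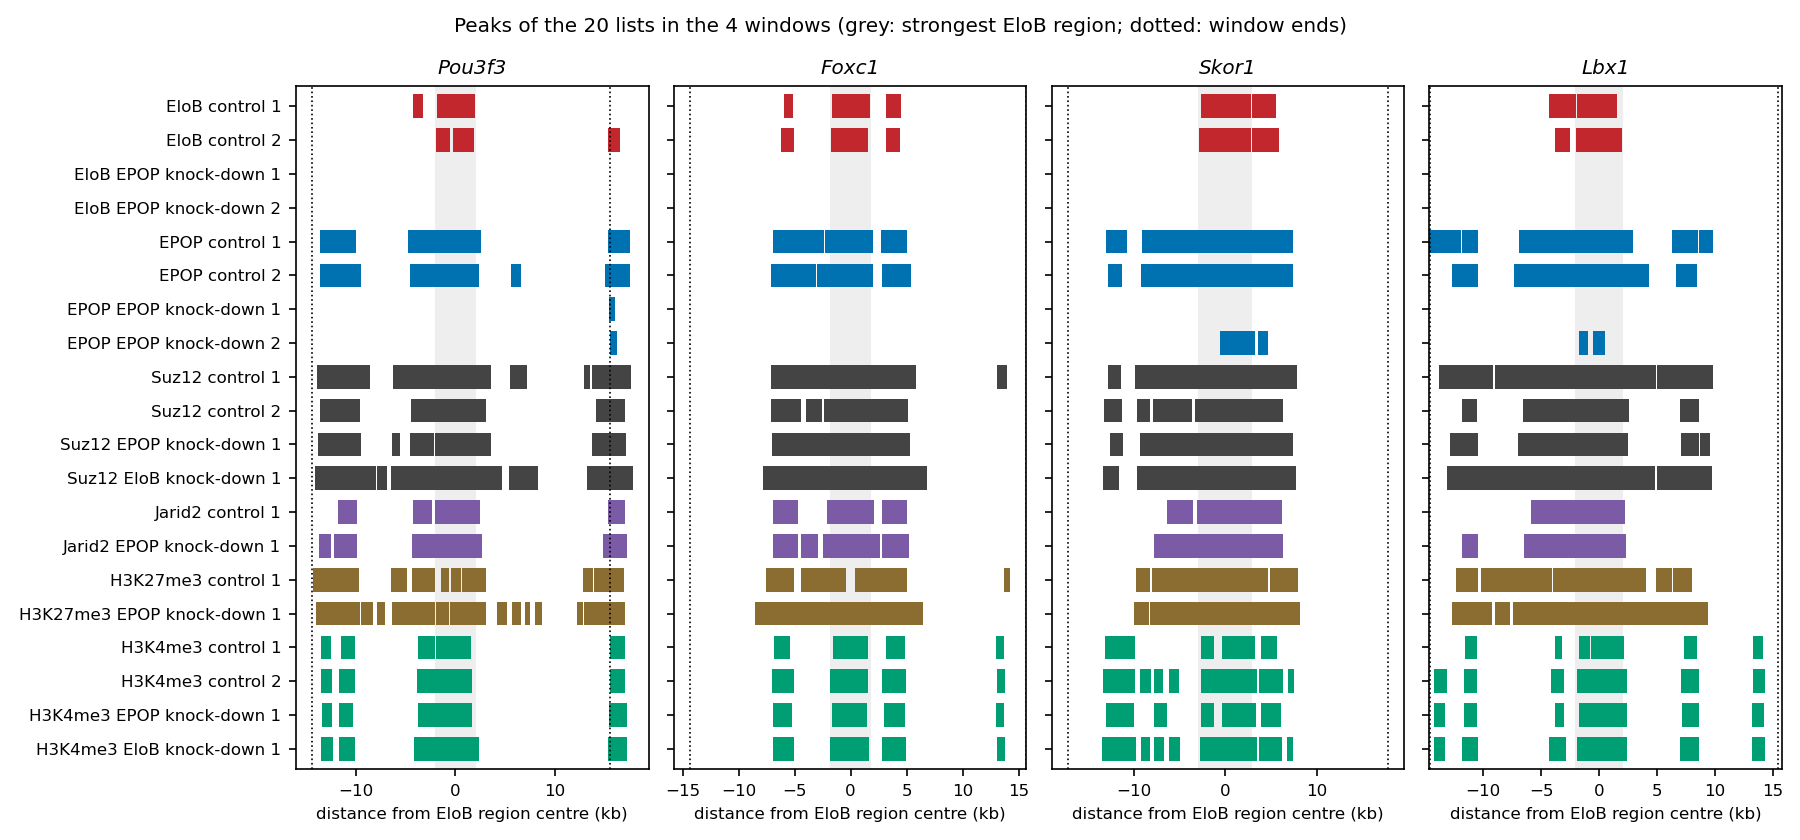
Peaks of the 20 lists (rows, coloured by target) in the 4 windows, drawn to scale as distance in kb from the centre of the strongest EloB region (grey band), with dotted lines at the ends of each window. All 4 windows hold EloB peaks in both control lists and none in either EPOP knock-down list, while Suz12, Jarid2, H3K27me3 and H3K4me3 peaks remain over the grey band.

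In control cells, each window held 1 dominant EloB region, and in both lists upon EPOP knock-down the 4 windows held no EloB peak at all. The dominant region of Pou3f3 spanned chr1:42752468-42756354 (3887 bp) and scored 835 in control replicate 1 and 705 in replicate 2, which placed it 5th and 20th of all EloB peaks in those lists. The Foxc1 region, chr13:31897619-31901073 (3455 bp), scored 822 and 993 and was 6th in both lists. At Skor1 the region chr9:62989385-62995013 (5629 bp) scored 737 and 1107 and was 9th and 3rd. Lbx1 carried chr19:45307592-45311513 (3922 bp), which scored 680 and 698 and was 13th and 22nd. All 4 were therefore within the 22 highest EloB peaks of both lists. Strong EloB peaks are what the genes were chosen by, so these ranks do not measure agreement between the 2 EloB antibodies. They were wide among EloB regions of all scores: the median EloB region measured 1717.5 bp, and the 4 stood at the 94.2nd (Foxc1), 96.7th (Pou3f3), 96.8th (Lbx1) and 99.6th (Skor1) percentile of width. Width was read from the same EloB peaks by which the genes were chosen, so it is not a separate trait.

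Weaker EloB regions flanked the dominant ones in the same windows. Skor1 had a second region of 2989 bp directly beside the first, with scores of 370 and 528, and Lbx1 had one of 2302 bp with scores of 290 and 209. Foxc1 had 2 flanking regions, of 1348 bp (scores 189 and 178) and 1124 bp (57.2 and 75.7). At Pou3f3 a region of 1232 bp at the edge of the window scored 57.9 and 145. None of these 5 flanking regions had a peak upon EPOP knock-down either. The absence in all 4 windows is what the genes were chosen by, and 841 of the 930 EloB regions, 90.4%, likewise had no peak in either knock-down list. The nearest EloB peak left upon EPOP knock-down was 4.15 Mb from the Pou3f3 region, 8.04 Mb from that of Foxc1 and 4.64 Mb from that of Lbx1 in both replicates. For Skor1 it was 1.03 Mb away in replicate 1 and 15.3 Mb away in replicate 2.

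**Figure D2:**
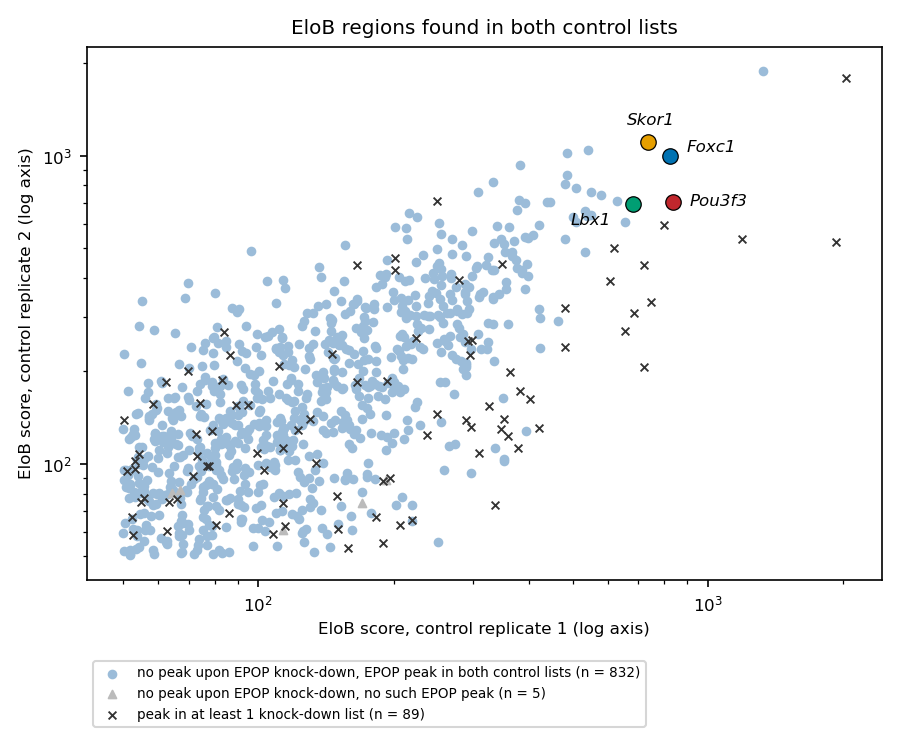
Score of each of the 930 EloB regions in control replicate 1 (x, log axis) and control replicate 2 (y, log axis), by whether a peak was found upon EPOP knock-down and whether EPOP peaks were present in both EPOP control lists; the dominant regions of the 4 genes are the large labelled points, and the 5 flanking regions are among the small ones. The 4 genes lie at the upper right, with scores from 680 to 835 in replicate 1 and from 698 to 1107 in replicate 2.

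EloB regions as strong as those of the 4 genes were also found among those that kept a peak upon EPOP knock-down. Leaving out the 4 genes, whose absence upon knock-down was part of their choice, 9 EloB regions scored at least as high as Lbx1 in control replicate 1. One of them, chr5:33772730-33778184, overlapped EPOP peaks in both EPOP control lists and had no peak in either knock-down list. The other 8, which include the mitochondrial region, lacked EPOP in at least 1 control list, and all 8 still had a peak upon EPOP knock-down. Outside the 4 windows, with the mitochondrial region left out, there were 920 other EloB regions. Of the 832 that overlapped EPOP in both control lists, 827 had no peak in either knock-down list. Of the 88 without such an overlap, 5 had no peak in either knock-down list. The strongest region of all in replicate 1, chr1:46909816-46911127, scored 2027 and 1780 in control cells and 2072 and 1366 upon EPOP knock-down. On chr6:51418268-51420396, the region ranked next below Foxc1 in replicate 1, the scores were 798 and 597 in control cells and 734 and 341 upon knock-down. The 4 genes ranked between 3rd and 22nd in replicate 2. Of the regions with EloB left, chr1:46909816-46911127 ranked 2nd there, above all 4 genes. Others ranked lower in several cases, for example 145th for chr15:79905310-79908115 and 334th for chr13:23855447-23857400. These 2 stand next above and next below Skor1 in replicate 1. On chr8:44372008-44374774, next above Lbx1 in replicate 1, the control scores of 684 and 308 stood beside 444 and 169 upon knock-down, and on chr17:45702340-45704966, next below it, 654 and 270 stood beside 584 and 188. The region next above Pou3f3 was mitochondrial.

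EPOP itself covered every dominant EloB region completely in both control lists, as it did 89.6% and 90.2% of 920 other EloB regions. The summed width of EPOP peaks in the Pou3f3 window was 13100 and 14450 bp in control replicates 1 and 2, and 573 and 736 bp upon EPOP knock-down. In the Foxc1 window it was 11059 and 11743 bp in control cells, and neither knock-down list had an EPOP peak. At Skor1 the widths were 18814 and 18129 bp in control cells, 0 in knock-down replicate 1 and 4902 bp in knock-down replicate 2. At Lbx1 they were 17385 and 15692 bp in control cells, 0 in knock-down replicate 1 and 1881 bp in knock-down replicate 2. In all 4 windows both knock-down values lay below both control values, as they did in 96% of the 30-kb windows around other EloB regions. In each control list the peak over the EloB region scored 3100 or, for Skor1 in replicate 1, 3129, values shared with the strongest EPOP peaks of the genome.

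**Figure D3:**
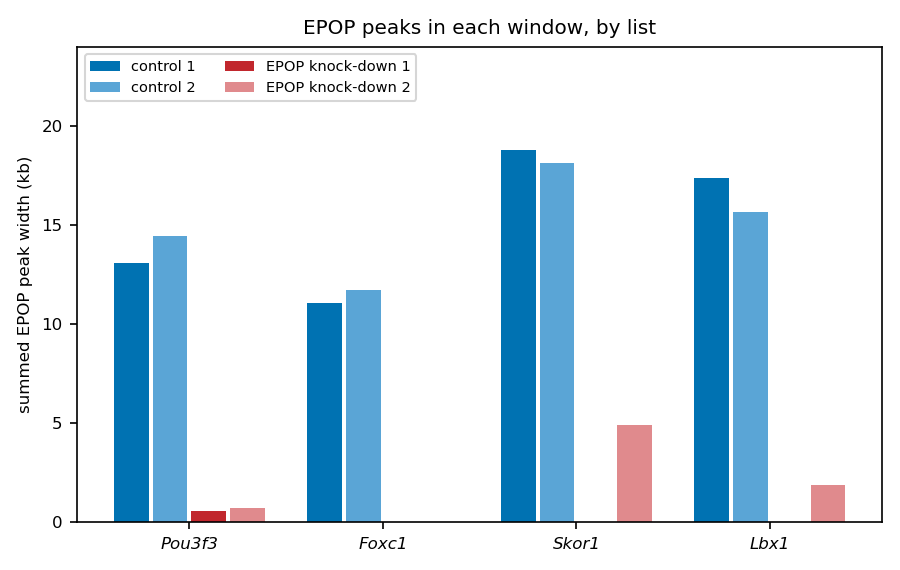
Summed width of EPOP peaks (kb) in the window of each gene in the 2 control lists (blue) and the 2 lists upon EPOP knock-down (red), 1 bar for each list. The control bars lie between 11059 and 18814 bp, and the highest knock-down bar is the 4902 bp of Skor1 in replicate 2.

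Summed over the 4 windows, EPOP peak width was 60186 ± 243 bp in control cells (SD, n = 2) and 4046 ± 4912 bp upon EPOP knock-down (SD, n = 2), a ratio of 0.0672. A two-sided exact permutation test gave p = 0.333, the smallest value that 2 lists against 2 allow. The remaining width came from knock-down replicate 2 (7519 bp) rather than from the library titled replicate 1 (573 bp). Without the library titled replicate 1, the log2 ratio was −3.00, and without replicate 2 it was −6.72, against −3.89 with both.

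The EPOP peaks left upon knock-down differed between the genes. At Pou3f3 they were a peak of 573 bp and one of 736 bp across the right edge of the window, within a flanking EPOP region that scored 779 and 1005 in control cells, and nothing was called over the dominant EloB region. Both overlapped the weak flanking EloB region at that edge. At Skor1, knock-down replicate 2 had a peak of 3822 bp that covered 59.4% of the EloB region and stood at the 99.1st percentile of that list, with a second peak of 1080 bp beside it. At Lbx1 the same list had peaks of 814 and 1067 bp that covered 48.0% of the EloB region, the higher one at the 87.8th percentile. The second EloB region of Skor1 also overlapped EPOP in that list. So 2 of the 4 dominant EloB regions, and 4 of 9 in the windows, overlapped an EPOP peak in at least 1 knock-down list. Neither EloB list upon EPOP knock-down had a peak there. Among the EloB regions outside the windows, 42.3% overlapped an EPOP peak in at least 1 knock-down list, and of all EPOP regions found in both control lists, 9.25% did. The shares in the windows were thus close to that of other EloB regions.

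Suz12, the core PRC2 subunit, still had peaks at all 4 genes upon EPOP knock-down. Suz12 peaks covered each EloB region completely in every one of the 4 Suz12 lists, as they did at 87.6% to 91.1% of 920 other EloB regions. The covering peak scored 3100 in each list, a value at or above which 1681 of the 6834 peaks of control replicate 1 lay. In the Pou3f3 window the summed Suz12 width was 21365 and 14370 bp in control replicates 1 and 2, 16669 bp upon EPOP knock-down and 25759 bp after depletion of EloB. In the Foxc1 window these widths were 13776 and 11486 bp, then 12325 bp and 14710 bp. For Skor1 they were 19126 and 17460 bp, then 18109 bp and 19132 bp. For Lbx1 they were 23392 and 12024 bp, then 14125 bp and 22694 bp. In each window the EPOP knock-down list lay between the 2 control lists, so no gene had Suz12 peaks wider than both controls upon EPOP knock-down, a result seen at 5.01% of the 30-kb windows around other EloB regions. Against the hairpin control alone (replicate 2), the list upon EPOP knock-down was wider in all 4 windows and in 82.6% of the windows around other EloB regions, with log2 ratios of 0.21 (Pou3f3), 0.10 (Foxc1), 0.05 (Skor1) and 0.23 (Lbx1). Summed over the windows, the log2 ratio was −0.12 against the mean of both controls and 0.15 against the hairpin control, so its sign depends on which control is used.

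Upon EloB knock-down, Suz12 peaks were wider than both control lists at Pou3f3, Foxc1 and Skor1, and between them at Lbx1. The margin at Skor1 was the step from 19126 to 19132 bp. Such windows made up 59.2% of those around other EloB regions, so 3 of 4 is near the background. The largest ratio of the 4, a log2 of 0.53 at Pou3f3, stood at the 93.9th percentile of those regions, and the smallest, 0.06 at Skor1, at the 13.2nd. A new Suz12 peak that overlapped no control peak appeared in the Pou3f3 window, 968 bp wide with a score of 96.5. The sum over the windows gave a log2 ratio of 0.31 against both controls and 0.08 against the control of the same kind, the small interfering RNA control (replicate 1). With 1 knock-down list there is no replicate check of these differences.

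Jarid2 peaks were wider upon EPOP knock-down in all 4 windows. The summed width was 10086 bp in control cells and 12871 bp upon knock-down at Pou3f3, 8680 and 11369 bp at Foxc1, 12156 and 14076 bp at Skor1, and 8173 and 10129 bp at Lbx1. These log2 ratios, 0.35, 0.39, 0.21 and 0.31, were ordinary for EloB sites: Jarid2 was wider in 92.3% of the windows around other EloB regions, with a median of 0.23. New Jarid2 peaks appeared at the flanks, 1 each at Pou3f3 (1195 bp, score 62.1), Foxc1 (1522 bp, score 101) and Lbx1 (1323 bp, score 56). At Skor1 the 2 control peaks, of 2790 and 9366 bp, were replaced by a single peak of 14076 bp. The peak over the EloB region already stood at or above the 99.2nd percentile of the control list in all 4 cases. Jarid2 had no replicates, and its knock-down list was the longer one, with 3665 peaks against 2641.

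H3K27me3 peaks were also wider upon EPOP knock-down in the 4 windows, and they covered more of the EloB region at the 3 genes where it was only partly covered in control cells (Pou3f3, Foxc1 and Lbx1). This was also so at 88.7% of the 213 other EloB regions that were partly covered in control cells, and at 21.3% of all 920. The summed width was 16943 bp in control cells and 23728 bp upon knock-down at Pou3f3, 11761 and 14965 bp at Foxc1, 17288 and 18148 bp at Skor1, and 19028 and 21563 bp at Lbx1. Wider H3K27me3 was found in 84.1% of the windows around other EloB regions, and the log2 ratios of 0.49, 0.35, 0.07 and 0.18 stood at the 82.8th, 70.2nd, 24.1st and 46.4th percentile of those. When only peaks over the EloB region were counted, the log2 ratio of the width summed over the genes was 0.65, against 0.27 for whole windows. By gene it was then 0.17 at Pou3f3, 0.78 at Foxc1, 0.37 at Skor1 and 1.07 at Lbx1, lower than for the whole window at Pou3f3 and higher at the other 3. Over 823 other EloB regions the median was 0.31, and the 4 genes stood at the 35.1st, 79.2nd, 55.8th and 87.5th percentile of these. Whole peaks that touch the region were counted here. A control peak beside the region was thus left out even where a joined peak included its bases upon knock-down. At Lbx1, 8019 bp in control cells stood beside 16801 bp upon knock-down. With gaps of up to 1000 bp filled, the whole-window ratios were 0.540 at Pou3f3, 0.179 at Foxc1, 0.036 at Skor1 and 0.115 at Lbx1. H3K27me3 had no replicates, and the file headers give its knock-down list another hairpin name than those of Suz12, Jarid2 and H3K4me3.

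The added H3K27me3 width lay in different places from gene to gene. At Foxc1, 2 control peaks of 3990 and 4723 bp left a gap of 804 bp inside the EloB region, and upon knock-down 1 peak of 14965 bp ran across it, so the covered part of the region went from 76.7% to 100%. At Pou3f3 the control list had 3 peaks over the EloB region, of 845, 1088 and 2502 bp, that covered 83.7% of it, and the knock-down list had 2, of 1346 and 3628 bp, that covered 96.2%. The Pou3f3 window also contained 7 H3K27me3 peaks that overlapped no control peak, with widths from 589 to 1259 bp and scores from 50.9 to 149, at or below the 47.9th percentile of that list. At Lbx1, 2 control peaks of 4241 and 3778 bp covered 98.95% of the EloB region, and upon knock-down 1 peak of 16801 bp covered all of it and both of its flanks. The whole Lbx1 window had 7 H3K27me3 peaks in control cells and 3 upon knock-down. At Skor1 a peak of 12704 bp and its neighbour of 3105 bp were replaced by 1 of 16467 bp, and coverage of the EloB region was 100% in both lists.

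**Figure D4:**
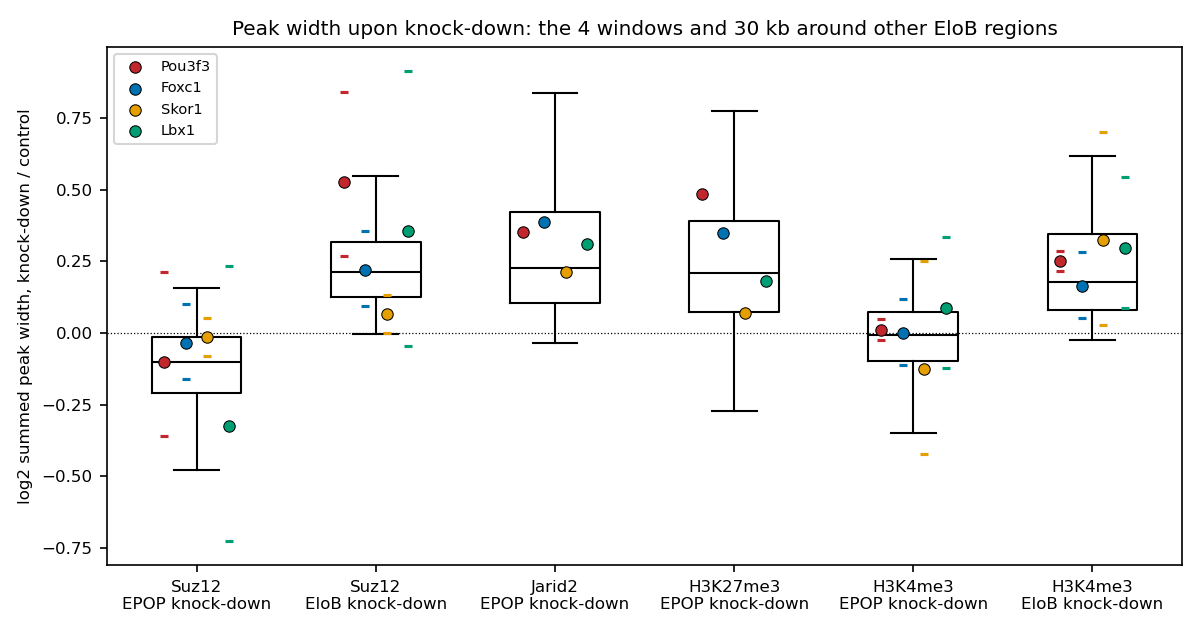
Log2 ratio of summed peak width, knock-down over the mean of the control lists, for 6 comparisons; large points are the windows of the 4 genes, short dashes are ratios against each control list alone where there are 2, and boxes show the median, quartiles and 5th to 95th percentiles of 30-kb windows around other EloB regions. The Jarid2 and H3K27me3 points all lie above 0, while the dashes of Suz12 and H3K4me3 upon EPOP knock-down lie on either side of 0.

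H3K4me3 peaks overlapped all 4 EloB regions in each of the 4 H3K4me3 lists, where between 3.91% and 5.22% of 920 other EloB regions had none. The summed width at Pou3f3 was 9246 and 9712 bp in control replicates 1 and 2, 9556 bp upon EPOP knock-down and 11284 bp after depletion of EloB. At Foxc1 these widths were 6874 and 8055 bp, then 7462 bp and 8356 bp. For Skor1 they were 10080 and 16106 bp, then 12004 bp and 16415 bp, and for Lbx1 7493 and 10289 bp, then 9444 bp and 10927 bp. Upon EPOP knock-down every window lay between its 2 controls, so none was wider than both, against 18.7% of the windows around other EloB regions. Upon EloB knock-down all 4 were wider than both controls, against 74.5% of those windows. Over the small interfering RNA control alone (replicate 2), which 75.4% of those windows exceeded, the log2 ratios were 0.22 at Pou3f3, 0.05 at Foxc1, 0.03 at Skor1 and 0.09 at Lbx1. The list upon EPOP knock-down was wider than the hairpin control alone (replicate 1) in all 4 windows and in 77.8% of those around other EloB regions. Over the 4 windows together, the log2 ratio was 0.27 against both controls and 0.09 against that control, while EPOP knock-down gave −0.02 against both and 0.19 against the hairpin control.

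Single H3K4me3 peaks showed where the difference upon EloB knock-down lay. At Pou3f3, the control lists had a flanking peak of 1701 or 1801 bp close beside the peaks over the EloB region. In control replicate 1 it ended at 42752346 and the next began at 42752418, and in replicate 2 at 42752321 and 42752398. The EloB knock-down list had 1 peak of 6459 bp in place of these adjacent peaks. Its score was 3100, a value at or above which 10046 of the 47296 peaks of that list lay. At Skor1, the control list of the hairpin and the EPOP knock-down list both had a gap in H3K4me3 inside the EloB region, of 875 and 964 bp. The small interfering RNA control and the EloB knock-down list had none there, with single peaks of 6132 and 6226 bp. At Skor1 this gap was thus shared by the lists of the hairpin experiment and absent from those of the small interfering RNA experiment.

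The outline of the EloB region matched H3K4me3 more closely than any other target at all 4 genes. The match was measured as the bases shared between an EloB region and the peaks over it, as a percentage of the bases in either. Averaged over the 2 control lists, H3K4me3 shared 90.7% with the EloB region at Pou3f3, 91.5% at Foxc1, 81.7% at Skor1 and 87.6% at Lbx1. Jarid2 came next at Pou3f3 (86.9%), Foxc1 (82.2%) and Skor1 (60.1%), and at Lbx1 H3K27me3 (48.2%) and Jarid2 (48.0%) were nearly level. EPOP shared 54.8% at Pou3f3, 74.96% at Foxc1, 33.9% at Skor1 and 36.6% at Lbx1, and its peaks extended beyond the EloB region on both sides. Suz12 shared 57.9%, 36.5%, 45.3% and 44.7% in the order Pou3f3, Foxc1, Skor1, Lbx1. These are means of 2 unlike control lists. At Lbx1, Suz12 shared 28.2% in control replicate 1 and 61.1% in replicate 2, the latter above H3K27me3 and Jarid2. At Skor1 it shared 31.9% and 58.7%, the latter close to Jarid2. H3K4me3 was also the closest match at 57.5% of 920 other EloB regions and at 58.1% of the 832 of them that overlapped EPOP. The share was 66% of the 50 that were at least as wide as the region of Foxc1, the narrowest of the 4.

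**Figure D5:**
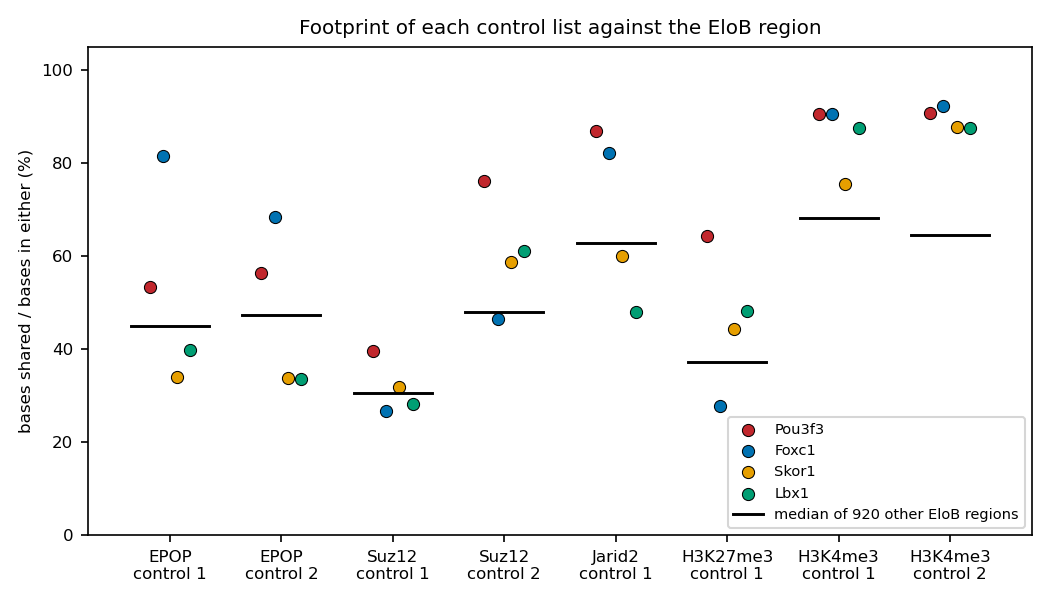
Bases shared between the dominant EloB region of each gene and the peaks over it, as a percentage of the bases in either, for the 8 control lists of the other targets; the black line is the median of 920 other EloB regions. The H3K4me3 points lie above that line for all 4 genes in both lists, and those of Suz12 differ between its 2 control lists.

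Counting all targets, the EloB region overlapped a peak in 16 of the 20 lists at Pou3f3 and at Foxc1, and in 17 at Skor1 and at Lbx1, where EPOP knock-down replicate 2 made the difference. Other EloB regions were ranked by likeness to the 4 genes over the 20 lists, as the mean absolute difference of their score percentile in each list, set to 0 where no peak was called, from the median of the 4 genes. The measure includes the EloB lists on which the genes were chosen, so likeness in EloB is built in, and peaks tied at 3100 all received the percentile of the top of the tie. The 5 regions most alike were chr19:16944912-16949951 (1.66 percentile points), chr2:38565545-38568434 (2.85), chr14:13176123-13179750 (3.45), chr19:54118964-54122271 (3.64) and chr15:72376210-72378653 (3.65), against a median of 12.7 over 920 other EloB regions. The genes themselves lay 3.85 (Pou3f3), 5.43 (Foxc1), 4.42 (Skor1) and 3.58 (Lbx1) points from that median of the 4 genes. Several of the 5 regions were thus closer to it than any of the 4 genes. All 5 regions overlapped EPOP in both control lists and had a peak in 17 lists. In the 2 H3K27me3 lists, which no tie touched at these genes, the percentile of the strongest peak over the EloB region in control cells and upon EPOP knock-down was 81.1 and 93.8 at Pou3f3, 97.2 and 96.8 at Foxc1, 87.2 and 91.3 at Skor1, and 97.6 and 93.6 at Lbx1.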

How the data were processed

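Groups and replicate numbers came from the sample titles. Per the submitters' processing notes, Bowtie, TopHat, Cufflinks and the build mm9 were used, without their roles. The deposited peak names carry MACS; its version and settings are not given in the sources used. Each of the 20 lists belongs to 1 of the 30 samples; the 9 samples of RNA and the IgG ChIP were not analysed here. The deposited score of each peak is the authors' own value, of a kind that no source used here defines. Coordinates, counted from 1, are those of the deposited lists.

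The members, windows and comparisons were chosen with earlier results of these data known. The widths of whole peaks overlapping a window by at least 1 bp were summed within a list. EloB and EPOP regions were merged control peaks that overlapped a peak of the other control list. Other EloB regions were taken with 15000 bp on either side of their centre, the mitochondrial region left out; the Skor1 window is 35 kb long and the others 30 kb. A window was called wider when the knock-down list exceeded every control list. Regions outside the windows were named by rule: the 5 most alike over the 20 lists, the neighbours of each gene in replicate 1 EloB score, and, among regions scoring at least as high as Lbx1 there, those with EloB left upon knock-down, of which some are printed. The tools were bedtools 2.31.1, Matplotlib 3.10.9, SciPy 1.17.1, NumPy 2.4.6 and Python 3.11.15. Overlaps equalled those of bedtools in 400 of 400 pairs of lists, and the width code was tested on simulated data.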

Additional observations from a re-analysis of the deposited data

How the results depend on the processing

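No EloB peak was called upon EPOP knock-down (0 of 4 genes) under any alternative, but none of them could change this count. The nearest such peak lay 1.03 Mb or more from the dominant EloB regions, so windows widened by 10000 bp could not reach one. The other alternatives can only remove peaks from an empty set. The number of genes with an EPOP peak upon EPOP knock-down was 3; it was 1 with the higher-scoring part, from 1 to 3 with a replicate left out, and 2 over the EloB regions. The log2 ratio of EPOP width stayed negative, from −6.72 to −3.00 with a list left out. With the replicate block it was −4.86, with an exact sign-flip p of 0.5, the smallest that 2 pairs allow. At Pou3f3 alone the EPOP ratio was −7.11 with peaks clipped to the window, against −4.40. Only 142 and 29 bp of the EPOP peaks left there upon knock-down lay inside the window, in replicates 1 and 2. The Jarid2 ratio was 0.18 with lists of equal length, against 0.31. The H3K27me3 ratio was 0.65 for whole peaks touching the EloB region, against 0.27 for whole windows and 0.23 for these with gaps filled. At Skor1 alone the H3K27me3 ratio was −0.07 with the higher-scoring part, against 0.07. With a control list left out, the Suz12 ratio ranged from −0.34 to 0.15 upon EPOP knock-down and from 0.08 to 0.57 upon EloB knock-down. That of H3K4me3 ranged from −0.20 to 0.19 and from 0.09 to 0.48. For single genes, 201 alternative values were compared with the reported one. Of these, 158 differed by less than the spread of the control lists, or by less than 0.1 (log2) for Jarid2 and H3K27me3. Another 42 moved further. This count says little where 1 of 2 control lists was left out, since the spread was that of the same lists. Without Suz12 control replicate 1, the Suz12 ratios upon EPOP knock-down counted among the 158. Yet they changed sign at all 4 genes, from −0.10 to 0.21 at Pou3f3 and from −0.33 to 0.23 at Lbx1. The causes of these shifts were not tested. Depth is unknown, so a missing peak sets no limit on the signal left.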
